A study of Rattus norvegicus with 20 samples.

Results

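Cells derived from the same rat progenitors with either of a pair of treatments were compared here. Low-density CCg progenitors (LD) had been treated with RA/Fsk to derive neurons, or with FBS to derive astrocytes, as the labels put it. All arrays labelled with either treatment were taken, which gave 10 of the 20 arrays of the series, 4 with RA/Fsk and 6 with FBS. Same-numbered arrays within a group were averaged, so that 4 RA/Fsk cultures (1 to 4) stood against 4 FBS cultures (1 to 4). FBS culture 1 had arrays a and b, and FBS culture 3 had arrays 3 and 3r. The untreated LD progenitors, the common starting cells, had 4 arrays from 3 cultures (1, 3 and 4), and their levels are given after those of the treated groups. High-density progenitors (HD), also with 3 cultures, entered the estimate of the spread, the pseudocount and the principal components, and their levels are not given. RA usually stands for retinoic acid, Fsk for forskolin and FBS for fetal bovine serum, while the labels leave CCg unexplained. No source used here gives the tissue, the doses or the durations, or states that cultures with different numbers are independent, so the p-values measure only the spread between these samples.

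Retinoic acid enters the nucleus and acts through retinoic acid receptors, which sit on DNA and switch genes on when they bind it. Forskolin activates adenylyl cyclase, so that cAMP rises, protein kinase A becomes active and the factor CREB is phosphorylated and activates genes with cAMP response elements. Both are used in culture to turn neural progenitors towards neurons. Serum carries growth factors and lipids that drive actin assembly and serum response factor, and it is a classic stimulus that turns glial progenitors into astrocytes.

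All values are linear array intensities that look scaled to a common level, with trimmed means of 200.3 to 200.5 per array. Over the 14 cultures of the series the first principal component, with 37.9% of the variance, placed RA/Fsk at 6.4 to 10.8, FBS at -52.9 to -46.2 and LD at 29.2 to 34.8. The second, with 13.4%, had RA/Fsk at 20.3 to 40.6, FBS at -10.3 to -3.7 and LD at -12.4 to 3.1. Arrays of different RA/Fsk cultures correlated at 0.94 to 0.968, and those of different FBS cultures at 0.956 to 0.979. Arrays 3 and 3r, averaged as FBS culture 3, correlated at 0.951, less than any pair from different FBS cultures. Arrays a and b of FBS culture 1 correlated at 0.975. Between RA/Fsk and FBS arrays the correlation was 0.906 to 0.931. The median SD per probe set was 0.37 log2 among RA/Fsk cultures and 0.24 among FBS cultures. The GAPDH 5' to 3' signal ratio, a measure of RNA integrity, was -0.11, -0.47, -0.39 and -0.19 log2 in RA/Fsk cultures 1 to 4, and -0.03, -0.03, -0.16 and -0.01 in FBS cultures. With this ratio as a covariate, 1239 probe sets passed the test between the groups, against 1606 without it. The number of arrays limits the precision.

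Of 8740 probe sets, 1606 passed the test between RA/Fsk and FBS (18.4%; limma, Benjamini-Hochberg adjusted p under 0.05). Of these, 723 were higher in RA/Fsk (8.27%) and 883 were lower (10.1%). With median centring of the arrays the split was 852 higher and 688 lower, and the median difference of all probe sets moved to 0.16 log2, against 0.06 as scaled by the authors. Large differences lay mostly on the lower side: 251 probe sets were higher by at least 2-fold, and 551 were lower by as much. The median difference was 0.79 log2 among the higher and -1.18 among the lower. Over the 4736 genes, each read by its probe set with the highest mean, 424 rose (8.95%) and 491 fell (10.4%), and the median difference was 0.05 log2. For 1877 probe sets (21.5%) all RA/Fsk cultures lay on one side of all FBS cultures. The LD mean lay nearer to RA/Fsk than to FBS for 79.8% of the higher and 89.1% of the lower probe sets, against 64.7% of all probe sets tested. The same FBS and RA/Fsk cultures enter both sides of that count and LD entered the estimate of the spread, so it is a description.

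**Figure D1:**
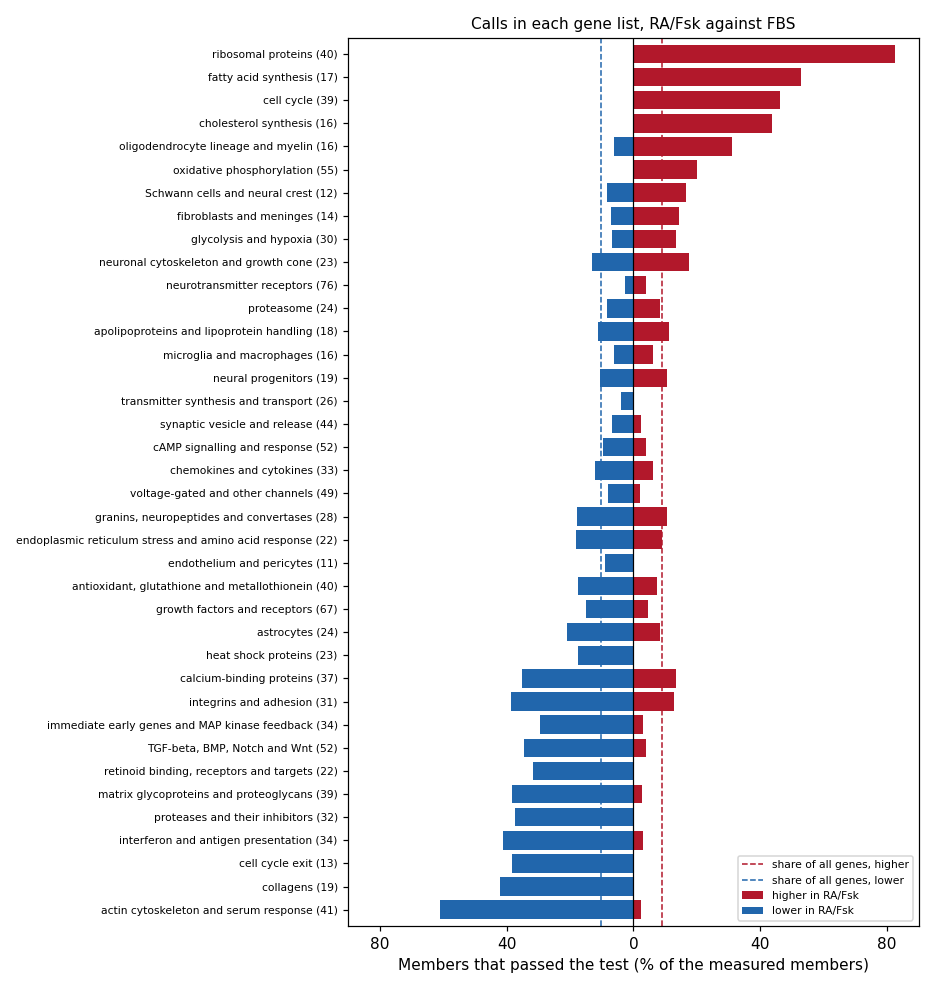
Share of the measured members of each gene list that passed the test between RA/Fsk and FBS, with higher genes to the right in red and lower genes to the left in blue. The number of members is in brackets. Dashed lines mark the shares of all genes, 8.95% higher and 10.4% lower. Ribosomal protein genes had 33 of 40 higher, and the actin and serum response list had 25 of 41 lower.

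The first genes to describe are those of the pathways that RA and Fsk act on. Of 52 genes of cAMP signalling and response, 2 rose and 5 fell, and the median difference was 0.05 log2, the same as over all genes. Without the dimmer 50% of probe sets, 1 rose and 2 fell. Pde4b, a phosphodiesterase that degrades cAMP, had 644, 605, 590 and 730 in RA/Fsk cultures, against 255, 229, 276 and 165 in FBS cultures and 253, 296 and 355 in LD. RA/Fsk cultures were higher than both other groups, and the gene rose by 1.47 ± 0.19 log2 (SE, n = 4 cultures each; adjusted p = 2.31e-05). 3 of its 4 probe sets passed. Pde4d, a close relative, differed by 0.06 ± 0.26 (adjusted p = 0.93). Crem, which encodes a cAMP-responsive repressor, differed by -0.10 ± 0.24 (adjusted p = 0.839), and Fos, an immediate early gene with a cAMP response element, by 0.14 ± 0.29 (adjusted p = 0.821). Fos had 1510, 735, 589 and 702 in RA/Fsk cultures, 1150, 945, 657 and 434 in FBS cultures, and 287, 286 and 307 in LD. Its level thus lay above LD in every treated culture, while the treated groups overlapped.

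Scg2 and Areg, both known targets of cAMP, moved in opposite directions. Scg2, which encodes the granule protein secretogranin II, had 41.7, 69.8, 50.2 and 73.5 in RA/Fsk cultures, against 15.2, 14.2, 18.3 and 4.1 in FBS cultures and 9.63, 2.9 and 4.5 in LD. It rose by 1.88 ± 0.35 log2 (adjusted p = 0.000952), with no overlap between the treated groups (1 log2 unit with a pseudocount of 32). Areg, the growth factor amphiregulin, had 14.5, 24.2, 4.3 and 8.4 in RA/Fsk cultures, 63.4, 66.7, 64.6 and 91.5 in FBS cultures, and 12.1, 9.6 and 11.8 in LD. It fell by 2.22 ± 0.33 (adjusted p = 0.000126; -1.22 with a pseudocount of 32), and RA/Fsk cultures lay around the LD level. Dusp1, a phosphatase that switches off MAP kinases, fell still further on its probe set with the largest difference. It had 13.7, 5.7, 12.1 and 4.8 in RA/Fsk cultures, 333, 308, 217 and 309 in FBS cultures, and 23.8, 39.9 and 65.6 in LD (-4.44 ± 0.34, adjusted p = 7.55e-08; -4.96 to -2.97 over the other settings). All 3 probe sets of Dusp1 fell, with differences of -4.44 to -2.07.

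The promoters of these 3 genes are shown because each holds the full cAMP response element and yet they moved in different directions. They are the 250 bases before the gene start from RefSeq, build GRCr8, written 5′ to 3′ on the gene's strand. Capitals mark the element TGACGTCA, which reads the same on both strands.
Scg2 (chr9:88256867-88257116, minus strand): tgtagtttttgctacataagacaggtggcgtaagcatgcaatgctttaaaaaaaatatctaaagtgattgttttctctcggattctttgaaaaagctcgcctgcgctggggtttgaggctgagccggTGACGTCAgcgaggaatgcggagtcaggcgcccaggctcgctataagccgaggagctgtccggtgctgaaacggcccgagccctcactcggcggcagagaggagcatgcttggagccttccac
Areg (chr14:17265642-17265891, minus strand): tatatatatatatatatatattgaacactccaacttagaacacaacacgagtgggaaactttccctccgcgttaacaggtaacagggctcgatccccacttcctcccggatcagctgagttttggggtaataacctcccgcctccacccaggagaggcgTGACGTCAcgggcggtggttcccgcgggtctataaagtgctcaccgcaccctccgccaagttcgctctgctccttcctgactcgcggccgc
Dusp1 (chr10:17184603-17184852, plus strand): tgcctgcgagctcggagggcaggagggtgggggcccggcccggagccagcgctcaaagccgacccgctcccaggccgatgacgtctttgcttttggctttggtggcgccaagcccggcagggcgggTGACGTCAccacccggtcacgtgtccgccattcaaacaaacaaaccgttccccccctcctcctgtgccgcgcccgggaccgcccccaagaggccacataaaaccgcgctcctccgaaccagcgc
Both strands were searched, and none of the 3 motifs contains another. The element begins 123 bases before the start in Scg2, 91 in Areg and 124 in Dusp1. Among promoters of the RefSeq table (250 bases before to 50 after the start), it was found in 10 of 354 genes that rose (2.82%) and in 12 of 393 that fell (3.05%). All measured genes with a promoter held it in 94 of 3879 cases (2.42%), and the whole table in 525 of 27457 (1.91%). The CArG box, where serum response factor binds, was found in 3 of the 354 that rose (0.847%), 7 of the 393 that fell (1.78%), 69 of all measured genes (1.78%) and 451 of the table (1.64%). A strict form of the retinoic acid response element, AGGTCA repeated in the same direction with 5 bases between, was found in 0 measured genes and in 3 of the table (0.0109%). These shares are descriptions of short windows and were not tested.

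Of 22 genes of retinoid binding, retinoid receptors and known targets, 0 rose and 7 fell, with a median difference of -0.05 log2. At an unadjusted p under 0.05 in limma, 2 were higher and 7 lower. The median took the opposite sign under 6 of 21 other settings. Cyp26b1, the enzyme that clears retinoic acid, had 40.6, 28.6, 42.4 and 9.5 in RA/Fsk cultures, against 204, 137, 182 and 165 in FBS cultures and 58.3, 64.4 and 72.1 in LD. Every RA/Fsk culture lay below every FBS and LD culture, and the difference to FBS was -2.45 ± 0.33 (adjusted p = 4.86e-05). Crabp1, a cytoplasmic retinoic acid-binding protein, had 10.1, 21.2, 4 and 8.1 in RA/Fsk cultures and 25.6, 28.7, 47.6 and 64.7 in FBS cultures. It fell by 1.59 ± 0.38 (adjusted p = 0.00654; -0.77 with a pseudocount of 32), a call that ended with the GAPDH ratio as a covariate (adjusted p = 0.0502). Crabp2 differed by 0.65 ± 0.35 (adjusted p = 0.244). Rarb, a receptor gene that retinoic acid switches on in many cells, had 19.4, 11.3, 11.4 and 18.5 in RA/Fsk cultures, 7.24, 35.4, 10.4 and 13.3 in FBS cultures, and 9.22, 39.4 and 8.4 in LD (0.03 ± 0.42, adjusted p = 0.974). All these levels of Rarb, read on 1 probe set, lay below the array median of 49.1. With the covariate 3 genes of the list fell, and without the dimmer 50% of probe sets 4 did. Without RA/Fsk culture 3, 1 rose.

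Among the genes that rose most were several that were higher in RA/Fsk than in both FBS and LD. Tesc, the calcium-binding protein tescalcin, led with 1500, 1760, 1810 and 1720 in RA/Fsk cultures, against 124, 78.8, 144 and 96.6 in FBS cultures and 25.4, 11 and 5 in LD. The rise was 3.91 ± 0.30 log2 (adjusted p = 7.55e-08), and the RA/Fsk cultures were close together. Ccl2, a chemokine that attracts monocytes, had 2190, 2100, 2070 and 1930 in RA/Fsk cultures, 198, 115, 138 and 282 in FBS cultures, and 110, 62.5 and 59 in LD (3.54 ± 0.25, adjusted p = 3.79e-08). Both of its probe sets rose. Acy1, an aminoacylase that frees amino acids from their acetyl group, had 1950, 2410, 1840 and 2230 in RA/Fsk cultures, 420, 365, 368 and 378 in FBS cultures, and 385, 378 and 322 in LD. Its difference of 2.44 ± 0.13 (adjusted p = 8.47e-10) had the smallest SE of the 15 largest rises. Calca, which encodes calcitonin and the neuropeptide CGRP, had 369, 474, 212 and 309 in RA/Fsk cultures, 65.2, 67.1, 64.6 and 60.9 in FBS cultures, and 68.1, 30 and 24.4 in LD (2.26 ± 0.33, adjusted p = 0.000114).

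Pnlip, named for pancreatic lipase in the platform annotation, had 1230, 1150, 308 and 1160 in RA/Fsk cultures, against 97.7, 139, 88.4 and 45 in FBS cultures and 95.2, 76.8 and 102 in LD. It rose by 3.22 ± 0.42 log2 (adjusted p = 3.18e-05), although RA/Fsk culture 3 stood well below the other cultures of its group. The same culture was the lowest for Pgc, the pepsinogen progastricsin, with 93.3 against 197, 311 and 225, and for Clec9a, a lectin receptor, with 59.9 against 115, 128 and 122. Pgc had 17.8 to 52.6 in FBS cultures and 11.3 to 17.5 in LD (2.44 ± 0.37). Clec9a had 10.8 to 16.5 in FBS cultures and at most 31 in LD (2.57 ± 0.31; 1.57 with a pseudocount of 32). For these 7 of the 15 genes with the largest rises, from Tesc to Clec9a, the LD mean was nearer to FBS.

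For the other 8 the LD mean was nearer to RA/Fsk. Pdgfra, the receptor of platelet-derived growth factor on glial progenitors, had 590, 932, 487 and 1030 in RA/Fsk cultures, 110, 140, 132 and 144 in FBS cultures, and 562, 999 and 803 in LD. The difference to FBS was 2.43 ± 0.26 log2 (adjusted p = 3.5e-06), but only 1 of its 4 probe sets passed. Cspg5, a neural proteoglycan, had 1510, 1710, 1320 and 2100 in RA/Fsk cultures, 225, 176, 323 and 242 in FBS cultures, and 892, 1320 and 1150 in LD (2.77 ± 0.28, adjusted p = 2.82e-06). Lgr5, the receptor of R-spondins that amplifies Wnt signals, had 285, 223, 92.4 and 186 in RA/Fsk cultures, 28, 22, 8.93 and 8.5 in FBS cultures, and 75.7, 90.6 and 90.7 in LD (3.21 ± 0.35, adjusted p = 4.55e-06). Here every LD culture lay below every RA/Fsk culture and above every FBS culture. Apod, a lipid carrier, Lsamp, an adhesion molecule of limbic neurons, Scfd2 and the desaturase gene Scd rose by 2.45, 2.93, 3.41 and 2.54. With a pseudocount of 32 the difference of Lsamp was 1.84. Of the 2 probe sets of Scd 1 passed, and the other was at 0.75. The last of the 15, Rpl19l4, rose by 3.29 ± 0.30. The annotation marks it as L19-like, and near-identical copies may share its probes.

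**Figure D2:**
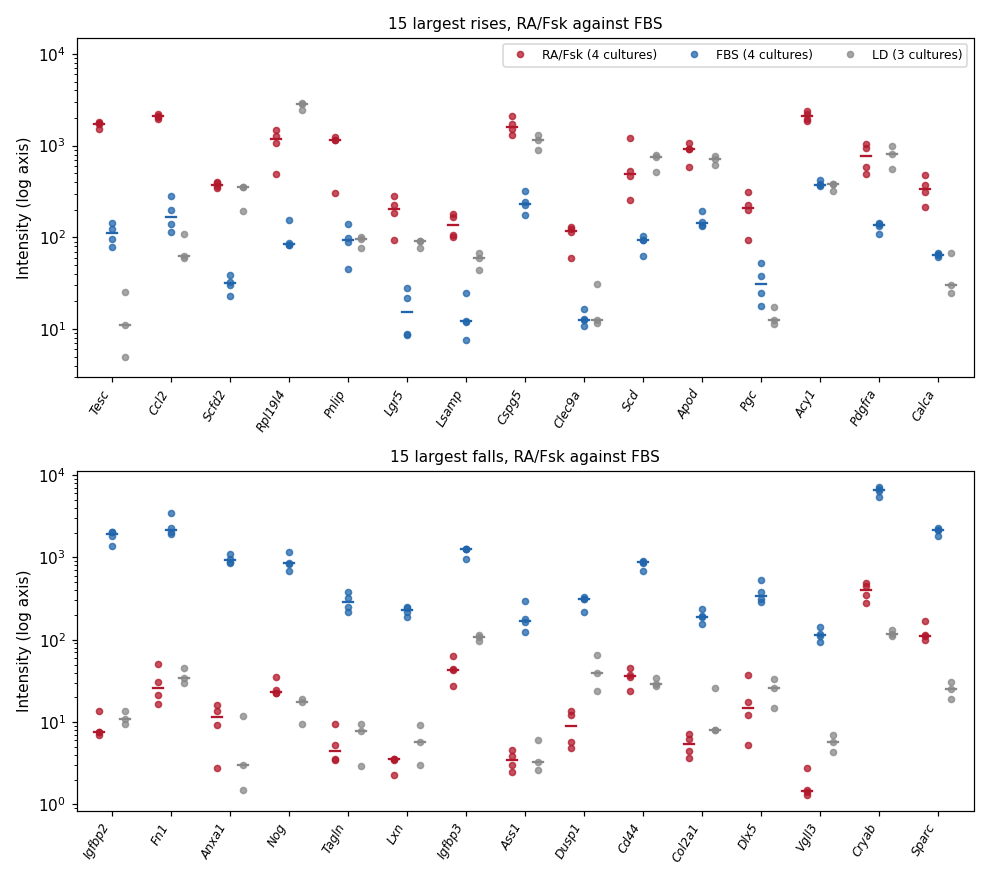
Intensity of the 15 genes with the largest rises (upper panel) and the 15 with the largest falls (lower panel) in each culture, on a log axis. RA/Fsk cultures are red, FBS cultures blue and LD cultures grey, and bars mark medians. In the lower panel all 15 LD means lie nearer to RA/Fsk than to FBS, as for Igfbp2 with means of 8.7 in RA/Fsk, 1790 in FBS and 11.3 in LD.

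The largest falls were larger than the largest rises, and for all 15 of the largest the LD mean was nearer to RA/Fsk. Igfbp2, a secreted binding protein of insulin-like growth factors, had 7, 13.5, 7.6 and 7.6 in RA/Fsk cultures, against 1380, 2030, 1830 and 2020 in FBS cultures and 13.8, 9.4 and 11 in LD. It fell by 7.04 ± 0.32 log2 (adjusted p = 2.78e-10; -7.54 to -5.48 over the other settings), and all 3 of its probe sets fell, with differences of -7.04 to -5.33. Fn1, the matrix protein fibronectin, had 50.4, 30.7, 21.2 and 16.7 in RA/Fsk cultures, 2240, 1930, 2010 and 3410 in FBS cultures, and 33.9, 30.1 and 45.4 in LD (-6.17 ± 0.26, adjusted p = 2.35e-10). All 5 of its probe sets fell. Anxa1, an annexin that binds membranes in the presence of calcium, had 9.1, 13.7, 16.3 and 2.8 in RA/Fsk cultures and 1100, 875, 844 and 957 in FBS cultures (-6.03 ± 0.35, adjusted p = 2.75e-09; -6.56 to -4.53 over the other settings). Nog, the secreted BMP antagonist noggin, had 22.3, 22.4, 24.5 and 34.9 in RA/Fsk cultures, 1150, 836, 856 and 691 in FBS cultures, and 19.3, 9.5 and 17.4 in LD (-4.84 ± 0.27, adjusted p = 1.65e-09).

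Cryab, the small heat shock protein alpha-B crystallin, was high with FBS but not at the floor with RA/Fsk. It had 277, 450, 347 and 486 in RA/Fsk cultures, 6470, 5430, 6740 and 7200 in FBS cultures, and 119, 133 and 112 in LD (-4.06 ± 0.16, adjusted p = 1.13e-10). Sparc, a matricellular glycoprotein, had 115, 170, 98.5 and 110 in RA/Fsk cultures, 1840, 2170, 2130 and 2240 in FBS cultures, and 25, 30.8 and 19.1 in LD (-4.06 ± 0.21), and 3 of its 4 probe sets fell. For both genes every RA/Fsk culture lay above every LD culture. Cd44, the hyaluronan receptor, fell by 4.39 ± 0.20, and 2 of its 4 probe sets passed. Other large falls were those of Tagln, an actin-binding protein of smooth muscle (-4.83), Lxn, a carboxypeptidase inhibitor (-4.8), Ass1, argininosuccinate synthase (-4.45), Dlx5, a homeobox factor (-4.20), and Vgll3, a cofactor of TEAD factors (-4.15). In RA/Fsk cultures Lxn, Ass1 and Vgll3 had values of 1.3 to 4.6, at or below the pseudocount of 4.99. With a pseudocount of 32 their differences were -2.86, -2.59 and -2.12, and with 1 they were -5.74, -5.35 and -5.42. That of Tagln was -3.08 with 32 and -5.56 with 1.

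The labels name neurons and astrocytes as the aim of the treatments, so markers of neural cell types were read in each culture. A bulk measurement cannot tell fewer cells of a type from less RNA per cell. Of 11 neuron markers on the list, 9 had a probe set with a single symbol, and 0 rose and 1 fell (1 and 2 at an unadjusted p under 0.05 in limma). Their median difference was 0.12 log2, and their summed level was 1110 to 1490 in RA/Fsk cultures, 1070 to 1280 in FBS cultures and 1080 to 1240 in LD. Map2, a dendritic microtubule protein, made up much of these sums, with 482 to 935, 544 to 640 and 462 to 728. Snap25, a membrane fusion protein of synapses, had 99.6, 61.1, 60.8 and 44.1 in RA/Fsk cultures, 32.7, 41.4, 26.9 and 31.1 in FBS cultures, and 85.6, 60.2 and 43.1 in LD. The treated groups did not overlap, but the difference of 0.87 ± 0.32 did not pass (adjusted p = 0.07; 0.0223 to 0.191 over the other settings, 6 of which passed). The 4 probe sets of Snap25 had differences of -0.21 to 0.87, and 0 of them passed. Syp, the vesicle protein synaptophysin, differed by 0.57 ± 0.29 (adjusted p = 0.213), Map2 by 0.23 ± 0.20 (adjusted p = 0.51), and Nefl, a neurofilament, by -0.49 ± 0.46 (adjusted p = 0.558). For Map2 this was the highest of 5 probe sets, which had differences of -1.04 to 0.23, and 0 of them passed. Gad1, the enzyme that makes GABA, had 5.1, 29.6, 29.8 and 22.3 in RA/Fsk cultures, 49.6, 118, 101 and 57.6 in FBS cultures, and 19.4, 33.4 and 20.6 in LD, and fell by 1.77 ± 0.43 (adjusted p = 0.00783; -1.06 with a pseudocount of 32 and -2.67 with the covariate). Tubb3 and Stmn2 were not analysed here.

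Wider neuronal lists also moved little. Of 44 genes of synaptic vesicles and release, 1 rose and 3 fell (median 0.15), and of 76 neurotransmitter receptors 3 rose and 2 fell (median 0.05). Of 49 channel genes, 1 rose and 4 fell, with a median of 0.17. These shares lie below those over all genes, 8.95% and 10.4%. With the covariate 4 synaptic and 4 channel genes rose, without FBS culture 2 or FBS culture 4 only 1 receptor gene rose, and without the dimmer 50% of probe sets 1 did. Without RA/Fsk culture 2 or 4, 2 synaptic genes rose, and without RA/Fsk culture 2, 3 or 4 or FBS culture 2, 2 channel genes did. Among 23 genes of the neuronal cytoskeleton and growth cone, 4 rose and 3 fell. Dpysl4, which guides growth cones, had 247, 335, 307 and 282 in RA/Fsk cultures, 54.6, 91.5, 66.6 and 56.6 in FBS cultures, and 225, 246 and 231 in LD (2.06 ± 0.17, adjusted p = 2.93e-07). Tubb2b, a tubulin of immature neurons and progenitors, had 10000, 8530, 8900 and 8750 in RA/Fsk cultures, 4650, 4350, 4920 and 3730 in FBS cultures, and 10900, 10700 and 10200 in LD (1.04 ± 0.11; 0.68 with quantile normalization). Its other probe set, at 0.19, did not pass. For both, RA/Fsk cultures lay near the LD level. Gap43, a growth cone protein, fell by 0.71 ± 0.19 (adjusted p = 0.0137), a call that ended with the GAPDH covariate (adjusted p = 0.172) or without RA/Fsk culture 2 (adjusted p = 0.0508). Of 28 granins, neuropeptides and their convertases, 3 rose and 5 fell. Chgb, the granule protein chromogranin B, had 11.6, 1.5, 2.1 and 4.5 in RA/Fsk cultures against 60.3, 100, 174 and 181 in FBS cultures (-3.74 ± 0.40; -2.07 with a pseudocount of 32), and Npy, neuropeptide Y, had 54.7, 76.2, 182 and 71.1 against 369, 397, 574 and 554 (-2.37 ± 0.35).

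Astrocyte genes moved in both directions. Of 24 astrocyte genes 2 rose and 5 fell, against 8.95% and 10.4% of all genes. The share of rises was thus near that of all genes. The median was 0.23 log2, a sign that turned under 2 other settings. The count of falls was 2 with the GAPDH covariate or with each array as its own sample, and 3 without RA/Fsk culture 1, RA/Fsk culture 4 or FBS culture 2. Without RA/Fsk culture 3, 5 rose. S100b, a calcium-binding protein of astrocytes, had 2190, 2560, 2350 and 2330 in RA/Fsk cultures, 1500, 2410, 2140 and 1660 in FBS cultures, and 334, 295 and 336 in LD. Both treated groups thus lay above LD, and between them the difference was 0.31 ± 0.17 (adjusted p = 0.237). Glul, glutamine synthetase, also lay above LD in both treated groups, but with FBS as the higher, with 1480, 1410, 1450 and 1920 in RA/Fsk cultures, 1640, 2290, 1620 and 2590 in FBS cultures, and 528, 562 and 673 in LD (-0.36 ± 0.16, adjusted p = 0.141; 1 of its 4 probe sets fell). Slc1a3, the glutamate transporter GLAST, had 73, 162, 74.2 and 120 in RA/Fsk cultures, 342, 369, 359 and 361 in FBS cultures, and 62.5, 109 and 98.4 in LD. It fell by 1.76 ± 0.28 (adjusted p = 0.000268; 3 of 4 probe sets) and the RA/Fsk cultures overlapped with LD. Aldoc, a glycolytic enzyme rich in astrocytes, moved the other way, with 4190, 4160, 4140 and 4940 in RA/Fsk cultures, 2480, 2910, 2740 and 2230 in FBS cultures, and 1010, 1580 and 1300 in LD (0.76 ± 0.15, adjusted p = 0.00146; 1 of 2 probe sets). Dbi, which carries acyl-CoA in glia, rose by 1.52 ± 0.16. Gfap was not analysed here.

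Several genes of the oligodendrocyte lineage were higher in RA/Fsk, while the few calls among progenitor genes went in both directions. Of 16 oligodendrocyte lineage and myelin genes 5 rose and 1 fell, with a median of 0.35 log2, and without FBS culture 4, 3 rose. Ugt8, the enzyme that makes the myelin lipid galactosylceramide, had 271, 340, 143 and 314 in RA/Fsk cultures, 57.8, 80.5, 62.1 and 65.6 in FBS cultures, and 133, 205 and 176 in LD. The rise was 1.87 ± 0.24 (adjusted p = 2.87e-05) on 1 of 2 probe sets. Cnp, a myelin enzyme, had 1920, 2180, 1380 and 1780 in RA/Fsk cultures, 869, 1080, 933 and 908 in FBS cultures, and 892, 1220 and 1030 in LD (0.92 ± 0.14, adjusted p = 0.000178). Mbp, myelin basic protein, had 789, 439, 280 and 550 in RA/Fsk cultures, 226, 354, 186 and 223 in FBS cultures, and 106, 66.7 and 84.3 in LD, and the difference of 0.99 ± 0.45 did not pass (adjusted p = 0.165). Of 19 progenitor genes 2 rose and 2 fell, with a median of -0.14 log2. These counts are near the shares over all genes, 8.95% higher and 10.4% lower. Fabp7, a fatty acid-binding protein of radial glia, had 633, 869, 369 and 959 in RA/Fsk cultures, 130, 196, 130 and 107 in FBS cultures, and 446, 552 and 474 in LD (2.23 ± 0.25, adjusted p = 7.99e-06). Ptprz1, a receptor phosphatase of glial progenitors, rose by 1.58 ± 0.28 on 1 of 2 probe sets (the other at -0.07). Vim, the filament protein vimentin, fell by 0.79 ± 0.17, and Tnc, tenascin C, by 1.56 ± 0.19. For Nes (nestin) the difference was -0.29 ± 0.24 (adjusted p = 0.499).

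Among defining markers of other lineages, no difference passed. In limma 0 of 5 measured microglia, 5 fibroblast, 3 endothelium and 3 Schwann cell markers passed, and 1 (endothelium) had an unadjusted p under 0.05. The summed microglia level was 125 to 240 in RA/Fsk cultures and 131 to 189 in FBS cultures, and 3 of the 5 markers (Itgam, C1qb and Csf1r) lay below the array median of 49.1 in both. For fibroblasts the sum was 120 to 208 in RA/Fsk cultures and 167 to 216 in FBS cultures, with 4 of 5 (Col1a2, Col3a1, Dcn and Lum) below that median. The endothelium sum was 75 to 136 in RA/Fsk cultures and 46.1 to 91.3 in FBS cultures, and the Schwann cell sum was 977 to 1920 and 1480 to 2540. Wider lists for these lineages held few calls, between 0 and 2 in each direction. Over all genes 8.95% rose and 10.4% fell, so such counts do not set these lists apart. Of 16 microglia and macrophage genes 1 rose and 1 fell, Coro1a, an actin-binding protein of leukocytes, by 1.35 ± 0.31 and Ctss, the protease cathepsin S, by 1.77 ± 0.25. Of 14 fibroblast and meninges genes 2 rose, Mgp and Thy1, and 1 fell, the matrix protein gene Postn (-3.16 ± 0.33). Of 11 endothelium and pericyte genes 1 fell, Edn1, which encodes endothelin 1 (-2.01 ± 0.38). Of 12 Schwann cell and neural crest genes 2 rose, Pou3f1, a transcription factor of myelinating cells (2.11 ± 0.36), and Ncam1, a neural adhesion molecule (0.77 ± 0.18), and 1, Cryab, fell. The calls of Coro1a and Ncam1 ended with the covariate (adjusted p = 0.075 and 0.185), and that of Thy1 (0.94 ± 0.31) ended under 9 of 20 other settings. With a pseudocount of 32 Coro1a was at 0.51 and Postn at -1.94, and with the covariate Edn1 was at -1.25. Thy1 and Ncam1 each passed on 1 of 2 probe sets. The part of such cells in the results was not tested.

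**Figure D3:**
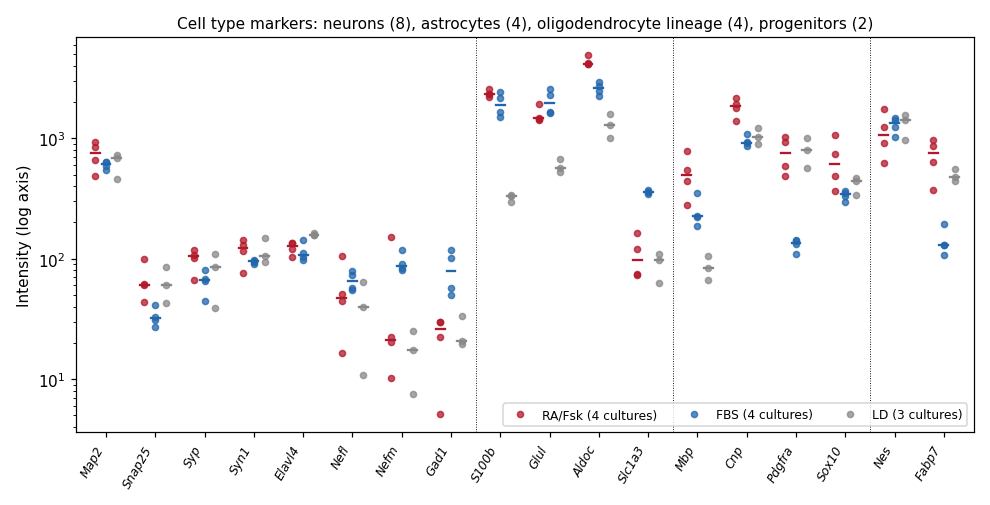
Intensity of markers of neurons, astrocytes, the oligodendrocyte lineage and progenitors in each culture, on a log axis, with RA/Fsk in red, FBS in blue and LD in grey, and bars at the medians. S100b and Glul lie above LD in both treated groups, and Pdgfra and Fabp7 are lower in FBS than in RA/Fsk or LD.

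Actin cytoskeleton and serum response genes made up the list with the highest share of falls among the 38. Of 41 genes, 25 fell and 1 rose, with a median of -0.77 log2 (-1.08 to -0.66 over the other settings). Pdlim1, a scaffold of actin stress fibres, had 116, 174, 201 and 146 in RA/Fsk cultures, against 1710, 1540, 1860 and 2780 in FBS cultures and 219, 243 and 273 in LD (-3.58 ± 0.19, adjusted p = 1.03e-09). S100a4, which binds non-muscle myosin, had 121, 110, 190 and 99.6 in RA/Fsk cultures, 1370, 1030, 1160 and 1390 in FBS cultures, and 73, 57.6 and 36.4 in LD (-3.23 ± 0.21). Anxa5, an annexin of membrane repair, fell by 2.51 ± 0.13. The 1 gene that rose, Arpc1b, a subunit of the actin-branching Arp2/3 complex, did so by 0.63 ± 0.20 (adjusted p = 0.0313), and lost the call under 7 of the other settings. Of 34 immediate early and MAP kinase feedback genes 10 fell and 1 rose, with a median of -0.17. Ccn1, a serum-induced matricellular protein, had 49.6, 38.5, 27 and 51.4 in RA/Fsk cultures, 750, 343, 501 and 590 in FBS cultures, and 23.9, 25.1 and 31.4 in LD (-3.54 ± 0.26), and Jun, the AP-1 subunit, fell by 1.62 ± 0.20 (3 of 4 probe sets). Dusp6, the phosphatase of ERK, rose by 0.75 ± 0.21 on 1 of 2 probe sets, a call that ended with array 3r alone for FBS culture 3 (adjusted p = 0.101), with the covariate (adjusted p = 0.12) or without FBS culture 2 (adjusted p = 0.0558).

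Calls among matrix, collagen and protease genes were nearly all falls, though most members did not pass. Of 39 matrix glycoproteins and proteoglycans 15 fell and 1 rose (median -0.36), of 19 genes of collagens and their processing 8 fell and 0 rose (median -0.45), and of 32 proteases and inhibitors 12 fell and 0 rose (median -0.39). At an unadjusted p under 0.05 in limma, 0 collagen genes and 4 protease genes were higher, and without RA/Fsk culture 1, RA/Fsk culture 2 or FBS culture 4, 1 protease gene rose. Col12a1, a collagen associated with fibrils, had 28.7, 23.9, 32.4 and 32.8 in RA/Fsk cultures, against 343, 277, 224 and 344 in FBS cultures and 32.1, 14.1 and 23.8 in LD (-3.12 ± 0.25, adjusted p = 1.97e-07). Agrn, a heparan sulfate proteoglycan that clusters receptors at synapses, had 197, 371, 288 and 291 in RA/Fsk cultures, 1190, 1000, 999 and 1050 in FBS cultures, and 653, 799 and 939 in LD. Its fall of 1.90 ± 0.17 left every RA/Fsk culture below every LD culture as well. Ncan, the brain proteoglycan neurocan, fell by 1.96 ± 0.20, and Tnc, tenascin C, by 1.56 ± 0.19. Mgp, a matrix protein that restrains calcification, was the only one of the 39 to rise (4 rose without RA/Fsk culture 3, and 2 without FBS culture 4), by 1.41 ± 0.35 (adjusted p = 0.00893), with 310, 168, 72.7 and 226 in RA/Fsk cultures against 61.1, 93.5, 41.8 and 59.5 in FBS cultures, which overlap.

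Adhesion molecules moved in both directions. Of 31 integrins and adhesion genes 12 fell and 4 rose, with a median of -0.24 log2, and 2 rose with the covariate. Itga1, a collagen-binding integrin chain, had 93, 64.5, 66.9 and 61.7 in RA/Fsk cultures, 757, 451, 668 and 628 in FBS cultures, and 52.8, 75.4 and 53.5 in LD (-3.04 ± 0.20, adjusted p = 1.2e-08). Nrcam, a neural adhesion molecule, had 67.3, 67.2, 68.1 and 65.2 in RA/Fsk cultures and 295, 268, 254 and 262 in FBS cultures (-1.93 ± 0.27). Cntn1, a contactin of axons and oligodendrocyte precursors, had 994, 937, 921 and 1480 in RA/Fsk cultures, 432, 641, 443 and 370 in FBS cultures, and 1190, 1570 and 1510 in LD (1.19 ± 0.19, adjusted p = 0.000215). Cst3, the cathepsin inhibitor cystatin C, was one of the genes that fell with LD nearer to FBS. It had 5930, 4710, 5560 and 4610 in RA/Fsk cultures, 12800, 10500, 13700 and 12200 in FBS cultures, and 12500, 14200 and 11100 in LD (-1.24 ± 0.16, adjusted p = 2.2e-05), so that the RA/Fsk cultures were the lowest. Timp2, an inhibitor of metalloproteinases, fell by 1.24 ± 0.14, with LD at 716 to 999, below the 1230 to 1680 of RA/Fsk cultures.

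Signalling genes of the TGF-beta, BMP, Notch and Wnt pathways fell more often than they rose. Of 52 genes 18 fell and 2 rose, with a median of -0.27 log2, and 11 fell without the dimmer 50% of probe sets. The falls included antagonists and targets of BMP alike: besides Nog, Grem1, the antagonist gremlin, had 5.2, 3.9, 7.4 and 6.7 in RA/Fsk cultures against 131, 168, 132 and 166 in FBS cultures (-3.84 ± 0.23; -2.26 with a pseudocount of 32), and Id1, a target of BMP that blocks differentiation factors, had 188, 76.9, 122 and 68.1 against 1210, 697, 894 and 927 (-3.06 ± 0.31, on 1 of 2 probe sets). Fzd1, a Wnt receptor, had 71.8, 147, 86.9 and 139 in RA/Fsk cultures, 629, 481, 467 and 496 in FBS cultures, and 181, 185 and 194 in LD (-2.22 ± 0.20), the lowest level again being with RA/Fsk. Bmp7, a BMP ligand, rose by 1.27 ± 0.25 (adjusted p = 0.00131). Among 67 growth factors and receptors 10 fell and 3 rose. Without the dimmer 50% of probe sets 5 fell, with array 3r alone for FBS culture 3 or with the covariate 6 fell, and without RA/Fsk culture 3 or with median centring 5 rose. Pdgfa, the ligand of the receptor Pdgfra, had 106, 97.9, 99.8 and 74.6 in RA/Fsk cultures, 386, 460, 448 and 490 in FBS cultures, and 114, 99.3 and 126 in LD (-2.18 ± 0.15, adjusted p = 2.14e-08). Receptor and ligand thus differed in opposite directions, though the rise of Pdgfra passed on only 1 of 4 probe sets. Tgfa, a ligand of the EGF receptor, had 610, 499, 300 and 553 in RA/Fsk cultures, 103, 164, 97 and 112 in FBS cultures, and 165, 162 and 176 in LD (1.98 ± 0.22, adjusted p = 5.72e-06), whereas Areg, a ligand of the same receptor, fell.

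Among interferon response and antigen presentation genes most calls were falls. Of 34 genes 14 fell and 1, Ccl2, rose, with a median of -0.62 log2. Ifitm3, which blocks virus entry, had 95.7, 51.6, 41.6 and 45.2 in RA/Fsk cultures, 631, 1170, 700 and 787 in FBS cultures, and 58.9, 31.5 and 47.2 in LD (-3.73 ± 0.28, adjusted p = 8.2e-08). Irf1, an interferon-induced transcription factor, had 103, 97.5, 94 and 121 in RA/Fsk cultures, 768, 351, 497 and 648 in FBS cultures, and 131, 177 and 138 in LD (-2.34 ± 0.21). RT1-CE12, a class I antigen-presenting molecule, fell by 1.12 ± 0.11, but probe sets of this gene family may not tell its members apart. Of 24 proteasome genes 2 rose and 2 fell, with a median of 0.07 log2. These shares lie below those over all genes, 8.95% and 10.4%. The 2 that fell were immunoproteasome subunits, Psmb8 by 1.21 ± 0.23 (-0.80 with the covariate) and Psmb9 by 0.90 ± 0.17. One of the rises was that of the constitutive subunit Psma7, by 0.63 ± 0.12 on 1 of 2 probe sets. Its call ended with array 3r alone for FBS culture 3 (adjusted p = 0.0832). Of 33 chemokine and cytokine genes 4 fell and 2 rose. C1r and C1s, proteases that start the complement cascade, fell by 3.09 ± 0.33 and 2.21 ± 0.33.

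All calls among cell cycle genes were rises, though 21 members did not pass. Of 39 genes 18 rose and 0 fell (28 and 0 at an unadjusted p under 0.05 in limma), with a median of 0.58 log2 (0.50 to 0.72 over the other settings). Top2a, the topoisomerase of dividing cells, had 820, 1790, 637 and 1830 in RA/Fsk cultures, against 376, 333, 427 and 480 in FBS cultures and 1680, 2850 and 2500 in LD (1.5 ± 0.28, adjusted p = 0.000954; 2 of 3 probe sets). Dut, which keeps uracil out of DNA, had 648, 720, 387 and 826 in RA/Fsk cultures, 239, 252, 279 and 194 in FBS cultures, and 1210, 1320 and 1290 in LD (1.36 ± 0.18). In both genes RA/Fsk culture 3 was the lowest of its group. Pold1, a DNA polymerase subunit, and Mcm6, a subunit of the replicative helicase, rose by 1.46 ± 0.22 and 1.03 ± 0.18, and Pcna, the replication clamp, differed by 0.53 ± 0.19 (adjusted p = 0.0672). Of 13 genes of cell cycle exit 5 fell and 0 rose (7 and 1 at an unadjusted p under 0.05 in limma; 3 fell with median centring; median -0.61), among them Btg3, an antiproliferative protein, by 0.77 ± 0.17, and Ccng1, cyclin G1, by 0.81 ± 0.18.

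Of the lipid synthesis genes about as many rose as did not pass. Of 16 cholesterol synthesis genes 7 rose and 0 fell (median 0.72 log2), and of 17 genes of fatty acid synthesis 9 rose and 0 fell (median 0.70). At an unadjusted p under 0.05 in limma, 11 and 10 were higher and 0 and 1 were lower, and without RA/Fsk culture 1, 3 or 4, 1 fatty acid synthesis gene fell. Sqle, which makes squalene epoxide, had 1040, 2060, 3660 and 2160 in RA/Fsk cultures, 701, 663, 727 and 482 in FBS cultures, and 3250, 4060 and 3490 in LD (1.67 ± 0.26, adjusted p = 0.000223). Acat2, which condenses acetyl-CoA, had 1180, 1450, 3640 and 1740 in RA/Fsk cultures, 473, 479, 540 and 527 in FBS cultures, and 2810, 3950 and 3510 in LD (1.84 ± 0.24). For both, RA/Fsk culture 3 reached the LD range while cultures 1, 2 and 4 lay between FBS and LD. Acsl3, an acyl-CoA synthetase, had 586, 725, 780 and 733 in RA/Fsk cultures, 241, 184, 216 and 165 in FBS cultures, and 539, 624 and 536 in LD (1.79 ± 0.14, adjusted p = 7.55e-08). Its other probe set was at 0.26 and did not pass. Lcat, which esterifies cholesterol in lipoproteins, had 127, 114, 69.5 and 108 in RA/Fsk cultures, 1340, 1570, 1580 and 1270 in FBS cultures, and 72.5, 31 and 104 in LD, and fell by 3.75 ± 0.35 (adjusted p = 9.79e-07).

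Ribosomal protein genes had the highest share of rises of the 38 lists, 33 of 40 with 0 falls, by small amounts. Their median difference was 0.59 log2 (0.35 to 0.69 over the other settings), 34 were higher and 0 lower at an unadjusted p under 0.05 in limma, and 22 passed with quantile normalization. By culture the median difference from the FBS mean was 0.80, 0.41, 0.65 and 0.45 in RA/Fsk, and 1.09, 0.92 and 0.85 in LD. Every LD culture thus lay above every RA/Fsk culture, and the rises are against FBS only. Rpl22 had 6560, 5860, 6150 and 7580 in RA/Fsk cultures, 3340, 3600, 3510 and 3820 in FBS cultures, and 7300, 6100 and 6430 in LD (0.87 ± 0.12, adjusted p = 5.86e-05; 0.56 with quantile normalization). The calls other than Rpl19l4 lay between 0.38 and 0.91. These genes have many near-identical copies, which the probes may not separate. Of 55 genes of oxidative phosphorylation 11 rose and 0 fell (21 and 0 at an unadjusted p under 0.05 in limma), with a median of 0.23. That count was 3 with the GAPDH covariate, 6 with array 3r alone for FBS culture 3 or without the intensity trend, 7 without FBS culture 1 and 17 with array 3 alone.

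The RA/Fsk cultures did not all stand at the same place on these lists. For cell cycle genes the median difference from the FBS mean was 0.62, 0.75, 0.05 and 0.77 log2 in RA/Fsk cultures 1 to 4, and 1.35, 1.39 and 1.28 in LD. Without RA/Fsk culture 3, 27 cell cycle genes rose. For cholesterol synthesis it was 0.35, 0.48, 1.80 and 0.54 in RA/Fsk cultures and 1.44, 2.05 and 1.59 in LD, and without culture 3, 6 genes rose. Culture 3 was thus near FBS for the first list and near LD for the second. On the actin and serum response list the RA/Fsk cultures were close together, at -0.63, -0.73, -0.88 and -0.75. RA/Fsk culture 1 had the highest median over all genes, 0.18, against -0.07 to 0.03 in RA/Fsk cultures 2 to 4 and -0.02 to 0.03 in FBS cultures, and for channel genes it had 0.54 where the other 3 had -0.02 to 0.06. LD culture 1 was also high over all genes, at 0.17, against -0.01 and 0.01 in LD cultures 3 and 4. Of the 8740 probe sets, 191 had RA/Fsk culture 3 and 217 had RA/Fsk culture 1 far from the other RA/Fsk cultures, against 79 for culture 2 and 95 for culture 4, by a gap above Dixon's critical value. In FBS the same count was 101, 119, 94 and 205 for cultures 1 to 4. RA/Fsk culture 3 also lay at 37.4 on the third principal component (10.1% of the variance), with RA/Fsk culture 1 at -25.6 and the other RA/Fsk cultures at 12.3 and 13. On that component LD culture 1 lay at -31.8, and LD cultures 3 and 4 at -1.3 and -9.

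**Figure D4:**
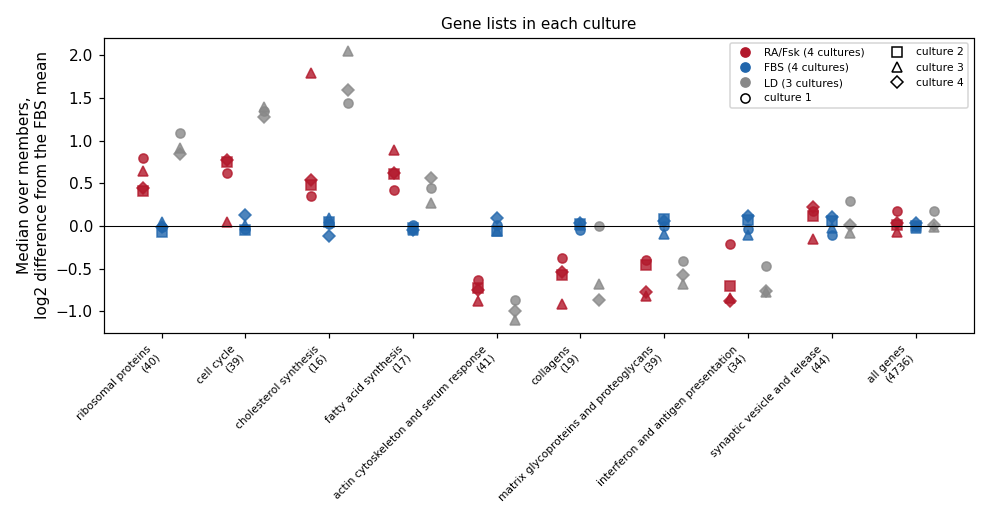
Median over the members of a gene list of the log2 difference between a culture and the mean of the FBS cultures, for RA/Fsk (red), FBS (blue) and LD (grey), with a symbol for each culture number. RA/Fsk culture 3 (triangle) lies at 0.05 for cell cycle genes and at 1.80 for cholesterol synthesis genes, apart from the other RA/Fsk cultures.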

How the data were processed

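The deposited table holds linear intensities of 8799 probe sets on 20 rat arrays, which look scaled by the authors to a common level (means of 200.3 to 200.5 after 2% was trimmed at each end). The detection calls were not used. No source used here describes background correction or probe summary. The pseudocount of 4.99, 10% of the median of all positive intensities (49.9), was added before log2, and same-numbered arrays within a group were averaged. All 14 cultures of the 4 groups were fitted in limma 3.58.1 (R 4.3.3; lmFit, eBayes with an intensity trend; 10 residual degrees of freedom, prior 6.13). Differences are log2 of RA/Fsk minus FBS, and the threshold was an adjusted p (Benjamini-Hochberg) under 0.05 over 8740 probe sets, with 59 controls left out. Levels are back-transformed culture means. GEO's platform annotation gave 7006 probe sets a single symbol, 308 several and 1426 none, covering 4736 genes. Gene lists use the probe set with the highest mean. Named genes are the 15 largest rises and the 15 largest falls without overlap between cultures and above the median level, the 4 smallest adjusted p in each direction of each list, and set markers. The genes with the largest differences are read on the probe set with the largest difference. From those the text gives a choice made after their values were seen. The groups, the 38 lists and the rules were chosen with earlier results of these data known. Lists are described by counts and medians, with no set test. Cell type markers come from a list of their own. The fit was tested on simulated data. Alternatives were 2 other pseudocounts, median centring, quantile normalization, filters on dim probe sets, fewer groups, single arrays, a replicate block, the GAPDH ratio as a covariate, no trend and each culture left out. Promoter sequences are from RefSeq (GRCr8).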

Additional observations from a re-analysis of the deposited data

Results flagged for a closer look

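In each group of 4 cultures, the highest and the lowest value of each gene named in the text were tested for standing apart from the rest (a gap to the nearest other culture above Dixon's critical share of the range, which chance gives in about 1 in 20 groups). Of 242 groups checked, 13 (5.37%) stood apart, about the share that chance gives, and the values are a description. RA/Fsk culture 3 stood apart for 5 genes: Nqo1 at 2260 against 120 to 188, Pnlip at 308 against 1150 to 1230, Clec9a at 59.9 against 115 to 128, Anxa5 at 422 against 329 to 341, and Lxn at 2.3 against 3.5 to 3.6. RA/Fsk culture 1 stood apart for C1s, at 44.2 against 19.7 to 21.3, and for Vgll3, at 2.8 against 1.3 to 1.5. RA/Fsk culture 2 did so for Igfbp2, at 13.5 against 7 to 7.6. RA/Fsk culture 4 was the highest for Aldoc (4940 against 4140 to 4190), Cntn1 (1480 against 921 to 994) and Glul (1920 against 1410 to 1480). In FBS, culture 1 was high for Rpl19l4, at 155 against 81.6 to 87.1, and culture 4 for Areg, at 91.5 against 63.4 to 66.7. Nqo1 was the gene where the culture that stood apart lay on the other side of the FBS cultures.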

How the results depend on the processing

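Over the 21 other settings between 1239 and 1709 probe sets passed, 568 to 852 of them higher and 645 to 968 lower, and none that passed in both changed direction. Leaving out 1 culture gave 1293 to 1628. The fewest, 1239, came with the GAPDH ratio as a covariate and the most, 1709, with array 3 alone for FBS culture 3, against 1348 with array 3r alone. Of 196 values of genes chosen by the naming rule, 181 passed, 137 of these passed under every setting run, 44 lost the call under at least 1, and 0 reversed. Another 6, among them Snap25, Syp, Glul, Mbp and Pcna, passed under at least 1 setting only. The labels do not say that the numbers pair the groups, so they were not treated as pairs. Deviations of RA/Fsk and FBS cultures with the same number correlated at -0.09 to 0.14, against -0.15 to 0.09 for other pairs. Of 4 RA/Fsk cultures, 2 correlated best with their own number. With so few cultures these values cannot tell whether the numbers mark shared batches. With the number as a replicate block 1693 passed, 764 higher and 929 lower. Low intensities limit the folds of genes near the pseudocount.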

Other observations

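Calcium-binding proteins were among the lists with most calls in both directions. Of 37 genes 5 rose and 13 fell, with a median of -0.27 log2, while over all genes 8.95% rose and 10.4% fell. Anxa1, Anxa5 and S100a4, which are among these falls, are also counted in the actin and serum response list. Camk2b, a subunit of the calmodulin-dependent kinase, had 463, 479, 569 and 385 in RA/Fsk cultures, against 260, 224, 253 and 216 in FBS cultures and 601, 721 and 677 in LD (0.97 ± 0.15, adjusted p = 0.000138 in limma; 1 of 2 probe sets). Calb1, the calcium buffer calbindin, had 5.3, 8.5, 2.2 and 16.8 in RA/Fsk cultures and 74.2, 66.7, 112 and 93.6 in FBS cultures (-2.89 ± 0.35; -1.56 with a pseudocount of 32), whereas Calb2, calretinin, rose by 0.70 ± 0.15. Gria2, an AMPA receptor subunit, had 76.7, 93, 80.7 and 78.6 in RA/Fsk cultures, 290, 234, 292 and 187 in FBS cultures, and 59.4, 46 and 88.3 in LD (-1.53 ± 0.21).

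Of 23 heat shock genes 0 rose and 4 fell (2 and 4 at an unadjusted p under 0.05 in limma), among them Cryab and Hspb6, a small heat shock protein, which had 74.8, 79.9, 47.9 and 56.5 in RA/Fsk cultures and 224, 246, 178 and 223 in FBS cultures (-1.69 ± 0.20). Of 40 antioxidant, glutathione and metallothionein genes 3 rose and 7 fell, and 4 fell with median centring, without the intensity trend, without FBS culture 2 or without FBS culture 3. Cp, the ferroxidase ceruloplasmin, fell by 1.92 ± 0.28 (2 of 3 probe sets), and Akr7a2, an aldehyde reductase, rose by 1.03 ± 0.17. Nqo1, a quinone reductase named after its values were seen, had 120, 181, 2260 and 188 in RA/Fsk cultures and 1250, 1060, 1210 and 1450 in FBS cultures (-1.96 ± 0.61, adjusted p = 0.033). RA/Fsk culture 3 lay above the FBS cultures, and the other RA/Fsk cultures below them.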
